A study of Mus musculus with 28 samples.

Results

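The Id proteins Id1, Id2, Id3 and Id4, the inhibitory Smads Smad6 and Smad7, and the pseudoreceptor Bambi were followed through mouse embryonic fibroblasts (MEFs) exposed to H2O2 or doxorubicin (Doxo). These 7 genes, of 17097 genes named on the arrays, were taken by symbol. They were read by 11 of 45037 probe sets, 3 each for Id2 and Id4 and 1 for each other gene. Each gene is given at its probe set with the highest mean over all arrays, as a log2 value after RMA normalization by the authors, where a difference of 1 is a 2-fold change.

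The MEFs were primary fibroblasts from embryos of 13.5 days, at passage 2, and were compared on 28 Affymetrix arrays. Cells of p53-/- mice gave 4 arrays labelled H2O2 (400 μM for 4 h) and 4 labelled untreated. Cells of p66-/- mice, which lack the longest protein of the Shc1 gene, gave 4 arrays after H2O2, 2 after Doxo (0.25 μg/ml for 4 h) and 4 untreated, and WT cells likewise gave 4, 2 and 4. The labels name the strain C57Bl/6 for all cells, whereas the methods name sv129. The question of the design was which responses to oxidative stress need p53 or p66, with Doxo, a topoisomerase poison that breaks DNA, as a second agent.

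Bone morphogenetic proteins (BMPs) bind paired serine/threonine kinase receptors, which phosphorylate Smad1, Smad5 and Smad9. These join Smad4, enter the nucleus and switch on a small set of early target genes. Among them are the Id genes, whose products hold a helix-loop-helix but no DNA-binding region, so that they capture E proteins and keep them from DNA. In fibroblasts, Id proteins are known for favouring proliferation and delaying differentiation and senescence. Smad6, Smad7 and Bambi are feedback brakes. Smad6 acts mainly on BMP signals, Smad7 on both TGF-β and BMP receptors, and Bambi is a receptor-like membrane protein without a kinase domain.

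Several features of the arrays bear on all values. No label names a batch, but replicates 1 and 2 differed from replicates 3 and 4 in a spike-in control, and these are called array sets here. This control, lys, averaged over 6 probe sets, read 4.99 to 6.06 on the 12 arrays of replicates 1 and 2, 3.24 to 4.04 on the 12 of replicates 3 and 4, and 4.04 to 4.41 on the 4 Doxo arrays, whose range touches that of replicates 3 and 4. The p66-/- arrays of replicate 2, treated and untreated, read lower than the other p66-/- arrays for most of the 7 genes. In p53-/- cells the labelled treatment gives signs opposite to those in the study's own table of fold changes. The legend of that table sets its values against untreated WT cells, whereas the signs here are against untreated p53-/- cells. The references differ, so this comparison alone does not settle the labels. Of the 1650 probe sets called in WT cells after H2O2, 98% had the opposite sign in p53-/- cells as labelled, against 2.79% in p66-/- cells. Values of p53-/- cells are therefore given as labelled and with the labels exchanged. No probe set carried the symbol Trp53 alone, and the 2 probe sets of Shc1 do not check the deletion, since the shorter Shc proteins share the 3′ part of the transcript. The mean of 10 fibroblast markers lay between 8.54 and 10.05 on every array, and that of 5 endothelial markers between 3.50 and 3.83. The means of 5 macrophage, 5 epithelial and 5 muscle markers lay at 4.39 to 5.73, 4.96 to 6.54 and 4.79 to 6.40. No gene of these lists was called after H2O2 in any genotype.

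Promoter windows of 4 of the 7 genes are shown because Smad complexes are known to bind short elements at BMP target genes. Elements more than 250 bases before the start lie outside these windows and were not searched. Each runs from 250 bases before to 10 bases after the annotated start, 5′ to 3′ on the strand of the gene, taken from RefSeq (GRCm38.p6). Capitals mark any match, on either strand, to GGCGCC (a GC-rich element described for BMP Smads), GTCTAGAC (the palindromic Smad-binding element), CAGAC (its shorter form) or CCAAT (bound by NF-Y). The windows of Id3 (chr4:136143572-136143831, plus strand), Id2 (chr12:25096083-25096342, minus strand), Id4 (chr13:48260866-48261125, plus strand) and Smad6 (chr9:64022050-64022309, minus strand) read as follows.
Id3: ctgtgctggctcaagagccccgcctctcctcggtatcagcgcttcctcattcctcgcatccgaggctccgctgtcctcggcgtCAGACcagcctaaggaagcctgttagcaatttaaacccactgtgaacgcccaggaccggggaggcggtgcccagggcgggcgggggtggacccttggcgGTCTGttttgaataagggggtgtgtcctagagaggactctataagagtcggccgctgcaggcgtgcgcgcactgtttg
Id2: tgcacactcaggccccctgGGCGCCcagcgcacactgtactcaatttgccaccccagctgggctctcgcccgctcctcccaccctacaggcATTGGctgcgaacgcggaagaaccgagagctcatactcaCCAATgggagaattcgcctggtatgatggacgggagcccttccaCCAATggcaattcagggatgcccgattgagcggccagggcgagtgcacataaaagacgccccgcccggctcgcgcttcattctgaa
Id4: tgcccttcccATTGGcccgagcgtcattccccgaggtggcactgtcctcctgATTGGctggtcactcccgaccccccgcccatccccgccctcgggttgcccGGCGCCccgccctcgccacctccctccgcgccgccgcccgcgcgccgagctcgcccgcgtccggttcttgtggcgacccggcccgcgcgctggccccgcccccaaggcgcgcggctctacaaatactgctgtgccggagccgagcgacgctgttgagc
Smad6: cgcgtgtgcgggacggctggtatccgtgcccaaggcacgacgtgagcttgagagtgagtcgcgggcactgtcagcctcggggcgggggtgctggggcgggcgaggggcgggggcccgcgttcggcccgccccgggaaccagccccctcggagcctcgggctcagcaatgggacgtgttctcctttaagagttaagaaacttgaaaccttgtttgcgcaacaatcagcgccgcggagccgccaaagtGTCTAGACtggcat

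The 4 windows held different matches, and no match overlapped another. GGCGCC stood 231 bases before the start of Id2 and 148 bases before that of Id4, and 9.96% of all 32851 promoter windows of this length in the table held it. GTCTAGAC stood in the window of Smad6 alone, beginning 4 bases before the start, and 0.177% of all windows held it. CAGAC or its reverse complement stood 2 times in the window of Id3, as in 44.0% of all windows at least once. CCAAT or its reverse complement stood 3 times in that of Id2 and 2 times in that of Id4, and 34.6% of all windows held it. A match is a run of letters, and binding was not measured. GC content was 62.3% for Id3, 61.5% for Id2, 75.0% for Id4 and 66.2% for Smad6, beside a median of 52.3% over all windows.

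Over the 8 groups, the means of the Id genes and Bambi were lowest in the same pair of groups, Smad6 shared these with a narrower range, and Smad7 did not (plot of levels by group). Id1, the best studied BMP target, had its lowest group mean in p53-/- cells labelled untreated, 5.73 ± 0.27 (SD, n = 4), and next in WT cells after H2O2, 6.69 ± 0.44 (SD, n = 4), with no overlap between their arrays. The group means of p66-/- Doxo, WT Doxo and p66-/- H2O2 arrays followed at 8.20 to 8.22. Untreated WT cells, p53-/- cells labelled H2O2 and untreated p66-/- cells lay at 9.26 to 9.52, within their SDs of 0.50 to 0.89. Id2 and Id4 also had their lowest means in p53-/- cells labelled untreated, at 7.31 and 4.59, and in WT cells after H2O2, at 7.54 and 4.67, neighbours that differed by less than their SDs. For Id3, Bambi and Smad6 these groups changed places, with overlapping arrays in each case, and for Id3 their SDs were 1.18 and 0.42. Bambi averaged 5.49 in WT cells after H2O2 and 6.23 in p53-/- cells labelled untreated, and Smad6 averaged 5.98 and 6.83 in the same groups. For Id3 the mean of p53-/- cells labelled untreated, 9.31, lay close to those after Doxo, 9.37 in p66-/- and 9.43 in WT cells. For Smad6 the mean of p66-/- cells after H2O2, 7.01, was likewise close to that of p53-/- cells labelled untreated. Smad7 instead had its lowest means after Doxo, 6.75 in p66-/- and 6.78 in WT cells, and the other 6 groups lay at 7.78 to 8.32.

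**Figure D1:**
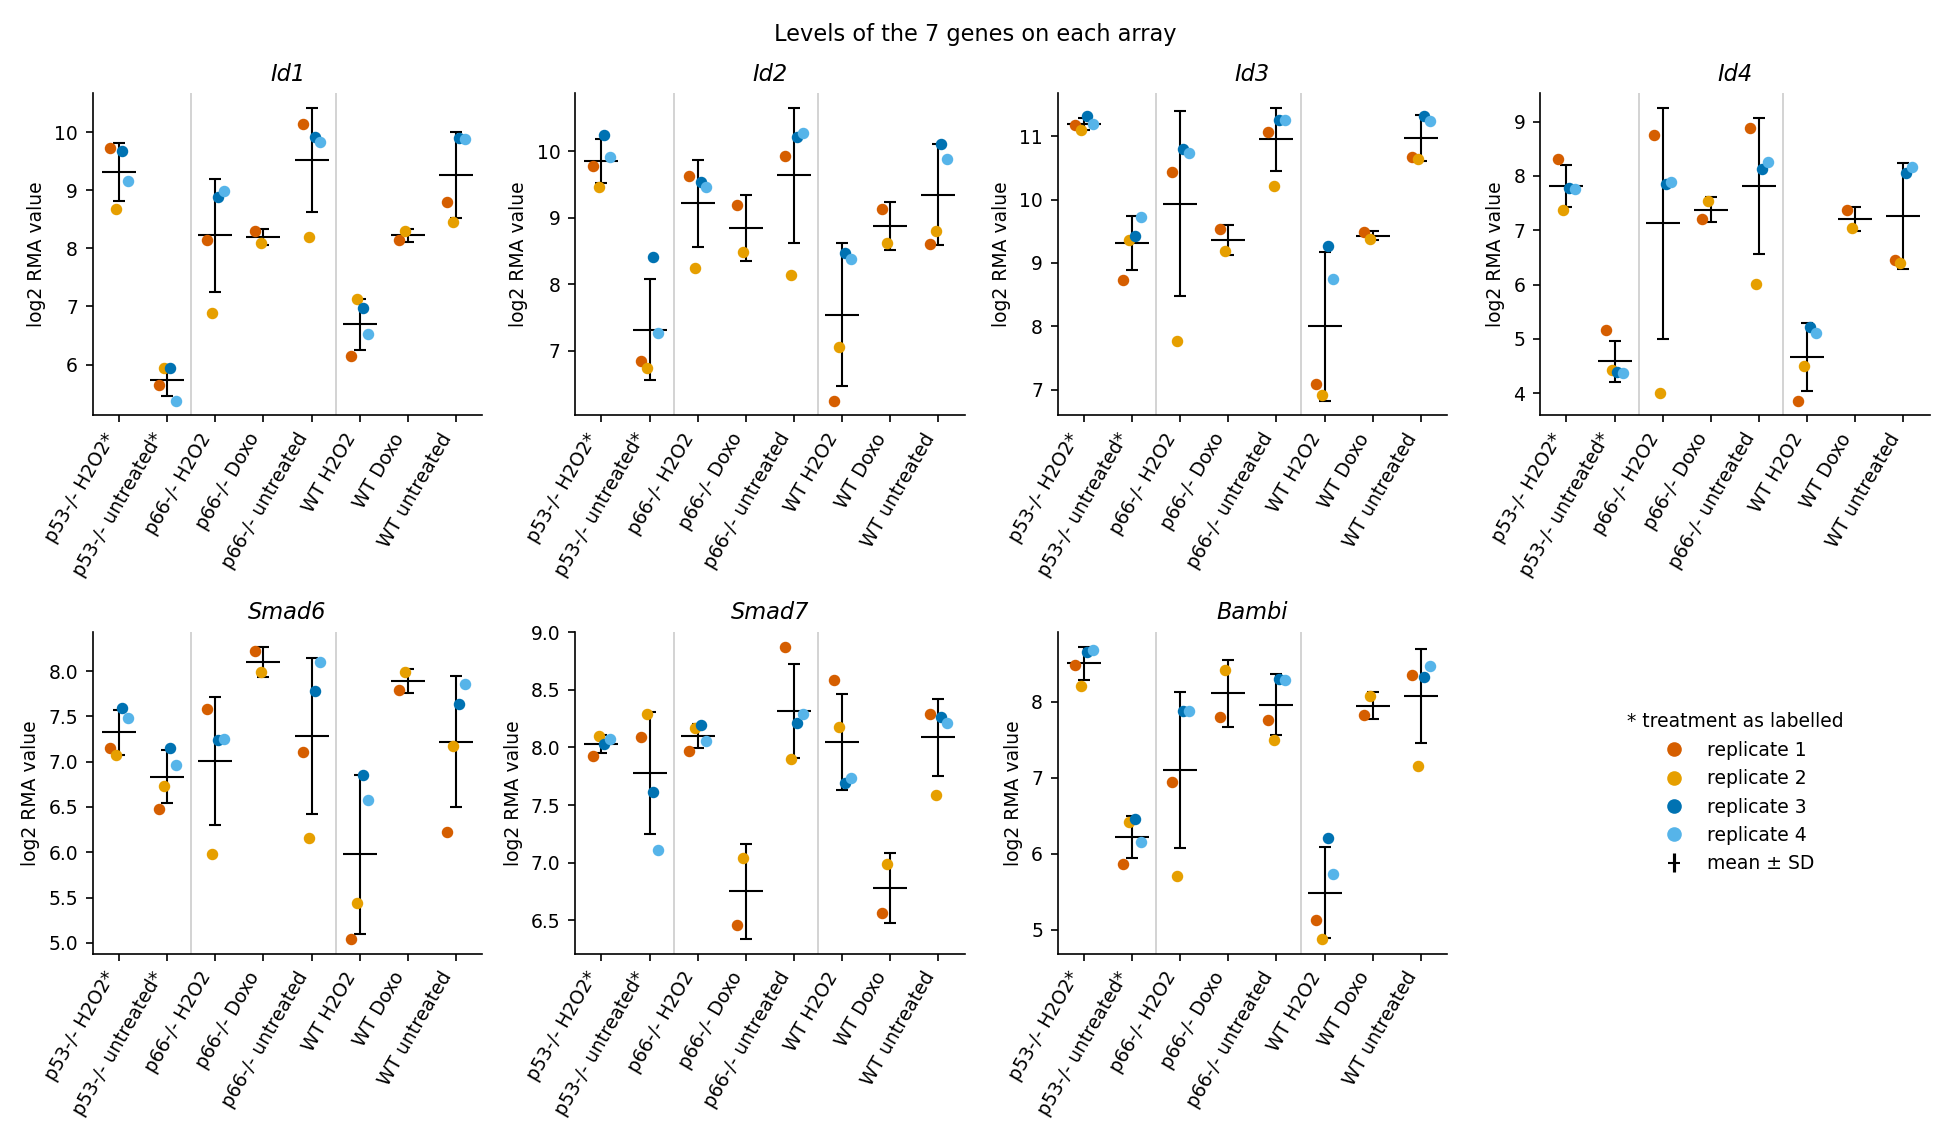
Log2 RMA value of each of the 7 genes (y axis, 1 panel per gene with its own scale) on every array of the 8 groups (x axis), coloured by replicate number, with the group mean and SD in black. Asterisks mark the p53-/- groups, whose treatment is given as labelled. Id1 to Id4 and Bambi were low in p53-/- cells labelled untreated and in WT cells after H2O2, while Smad7 was lowest after Doxo. For Id3 the mean of p53-/- cells labelled untreated lay close to those of the Doxo groups.

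The spans differed among members. Between the lowest and the highest group mean lay 3.79 for Id1, 3.22 for Id4, 3.19 for Id3, 3.02 for Bambi, 2.54 for Id2, 2.13 for Smad6 and 1.57 for Smad7. Over the 28 arrays, the Id genes correlated with each other at r of 0.78 to 0.90 and Bambi with the Id genes at 0.82 to 0.85. Smad6 correlated with the Id genes at 0.55 to 0.73, and Smad7 with the other 6 genes between -0.44 and 0.22. These are descriptions over arrays that share treatments and array sets.

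After H2O2, Id1, Id3, Id4 and Bambi fell in WT cells, by about 6-fold or more each, while Smad7 stayed near its untreated level. Of the 7 genes, 4 had a Benjamini-Hochberg adjusted p under 0.05 over all 45037 probe sets in limma and were lower, against 2.67% of all genes. By the thresholds of the study, an unadjusted p under 0.05 and at least 1.5-fold, 6 of the 7 were lower, against 3.68% of genes. The median log2 change was -2.56 for the 7 genes, beside 0.02 over all genes.

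Id1 read 6.15, 7.13, 6.97 and 6.53 in H2O2-treated WT cells, against 8.79, 8.46, 9.90 and 9.88 in untreated WT cells. Every treated array lay below every untreated one, with a log2 change of -2.56 (SE 0.44, adjusted p = 0.00092). Id3, a close relative of Id1 that captures the same E proteins, read 7.09, 6.91, 9.26 and 8.74 in H2O2-treated WT cells, against 10.67, 10.64, 11.32 and 11.24 in untreated WT cells. The groups did not overlap, although the treated arrays of replicates 3 and 4 were higher than those of replicates 1 and 2. The log2 change of Id3 was -2.96 (SE 0.52, adjusted p = 0.0014), a 7.81-fold lower level.

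Id4, known from its part in neural progenitors, read 3.86, 4.49, 5.22 and 5.10 in H2O2-treated WT cells, against 6.45, 6.40, 8.06 and 8.16 in untreated WT cells. The arrays did not overlap and the change was -2.60 (SE 0.72, adjusted p = 0.045), a call that was lost in 7 of the 8 fits that left out 1 WT array (adjusted p = 0.046 to 0.16). The other 2 probe sets of Id4 had changes of -1.80 and -0.90 with adjusted p = 0.15 and 0.34. Bambi, which holds back TGF-β and BMP receptors at the membrane, read 5.14, 4.88, 6.21 and 5.73 in H2O2-treated WT cells, against 8.36, 7.16, 8.33 and 8.47 in untreated WT cells. Its groups did not overlap, with a change of -2.59 (SE 0.38) and the lowest adjusted p of the 7 genes, 0.00023.

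Id2 read 6.24, 7.05, 8.47 and 8.37 in H2O2-treated WT cells, against 8.61, 8.79, 10.10 and 9.88 in untreated WT cells. The groups did not overlap, but the replicates 3 and 4 of both were high, and the change of -1.81 (SE 0.52) had an adjusted p of 0.053, or 0.0011 once replicate numbers entered the fit as blocks. The second probe set of Id2 gave -1.69 (adjusted p = 0.071), and the third read under 3.86 on every array. Smad6 read 5.04, 5.44, 6.85 and 6.58 in H2O2-treated WT cells, against 6.22, 7.17, 7.63 and 7.86 in untreated WT cells. Here the groups overlapped, and the change of -1.24 (SE 0.43) had an adjusted p of 0.13, or 0.012 with the block. Smad7 read 8.58, 8.17, 7.69 and 7.74 in H2O2-treated WT cells, against 8.29, 7.59, 8.26 and 8.21 in untreated WT cells. These arrays were interleaved, and the change was -0.04 (95% interval -0.54 to 0.46).

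By the two-sided exact permutation test, the 5 genes without overlap, Id1, Id2, Id3, Id4 and Bambi, had p = 0.029 each, the smallest that 4 against 4 arrays allow, and 4.46% of all genes were lower without overlap. Smad6 had p = 0.11 and Smad7 p = 0.89 in the exact test. Within same-numbered arrays, the difference was negative in 4 of 4 pairs for Id1, Id2, Id3, Id4, Smad6 and Bambi (plot of differences within numbers). Smad7 was higher after H2O2 in the pairs of numbers 1 and 2, by 0.29 and 0.59, and lower in those of numbers 3 and 4, at -0.57 and -0.47. In the fits to each array set, the change of Id3 was -3.65 in replicates 1 and 2 and -2.28 in replicates 3 and 4, and that of Id1 was -1.98 and -3.14. None of the 7 genes had an adjusted p under 0.05 in replicates 1 and 2 alone, where each group held 2 arrays. In replicates 3 and 4 alone, also with 2 arrays per group, Id1, Id2, Id3, Id4, Smad6 and Bambi were called lower. Their adjusted p in limma was 4.9e-07 to 0.0089, so the calls differed between the array sets at the same group size. The share of all genes called in these fits was not computed.

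In p66-/- cells none of the 7 genes was called after H2O2. The fitted changes of Id1, Id2, Id3, Id4, Smad6 and Bambi were smaller in size than in WT cells, a difference that was itself not called. The adjusted p was 0.70 for Id1 and 1.0 for the other 6, beside 0.0351% of genes called higher and 0% lower. By the thresholds of the study, Id1 and Bambi were lower, 2 of 7 against 0.404% of genes. The median log2 change of the 7 genes was -0.69, beside -0.02 over all genes.

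Id1 read 8.15, 6.88, 8.87 and 8.99 in H2O2-treated p66-/- cells, against 10.13, 8.19, 9.92 and 9.83 in untreated p66-/- cells. The groups overlapped through replicate 2, the lowest array of each, and the change was -1.29 (SE 0.44, adjusted p = 0.70). Id3 read 10.44, 7.76, 10.81 and 10.74 in H2O2-treated p66-/- cells, against 11.07, 10.22, 11.26 and 11.25 in untreated p66-/- cells. Numbers 1, 3 and 4 stayed within 0.64 of their untreated array, and number 2 was lower by 2.46 (change -1.01, SE 0.52). Id4 read 8.76, 4.002, 7.84 and 7.89 in H2O2-treated p66-/- cells, against 8.88, 6.00, 8.12 and 8.25 in untreated p66-/- cells. Replicate 2 again stood far below the rest in both groups, and the change was -0.69 (SE 0.72).

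Bambi read 6.95, 5.71, 7.88 and 7.88 in H2O2-treated p66-/- cells, against 7.77, 7.50, 8.30 and 8.29 in untreated p66-/- cells, with a change of -0.86 (SE 0.38). Its treated arrays were lower within each number, but the groups overlapped. Id2 read 9.62, 8.24, 9.54 and 9.46 in H2O2-treated p66-/- cells, against 9.93, 8.13, 10.21 and 10.27 in untreated p66-/- cells. The change of Id2 was -0.42 (SE 0.52), with 1 pair higher and 3 lower. Smad6 read 7.58, 5.98, 7.24 and 7.25 in H2O2-treated p66-/- cells, against 7.10, 6.15, 7.78 and 8.10 in untreated p66-/- cells (-0.27, SE 0.43). Smad7 read 7.97, 8.16, 8.20 and 8.06 in H2O2-treated p66-/- cells, against 8.87, 7.90, 8.21 and 8.29 in untreated p66-/- cells (-0.22, SE 0.24). The arrays of both genes overlapped. Without both arrays of replicate 2, the changes in p66-/- cells were -1.29 for Id1, -0.53 for Id3, -0.25 for Id4 and -0.55 for Bambi.

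**Figure D2:**
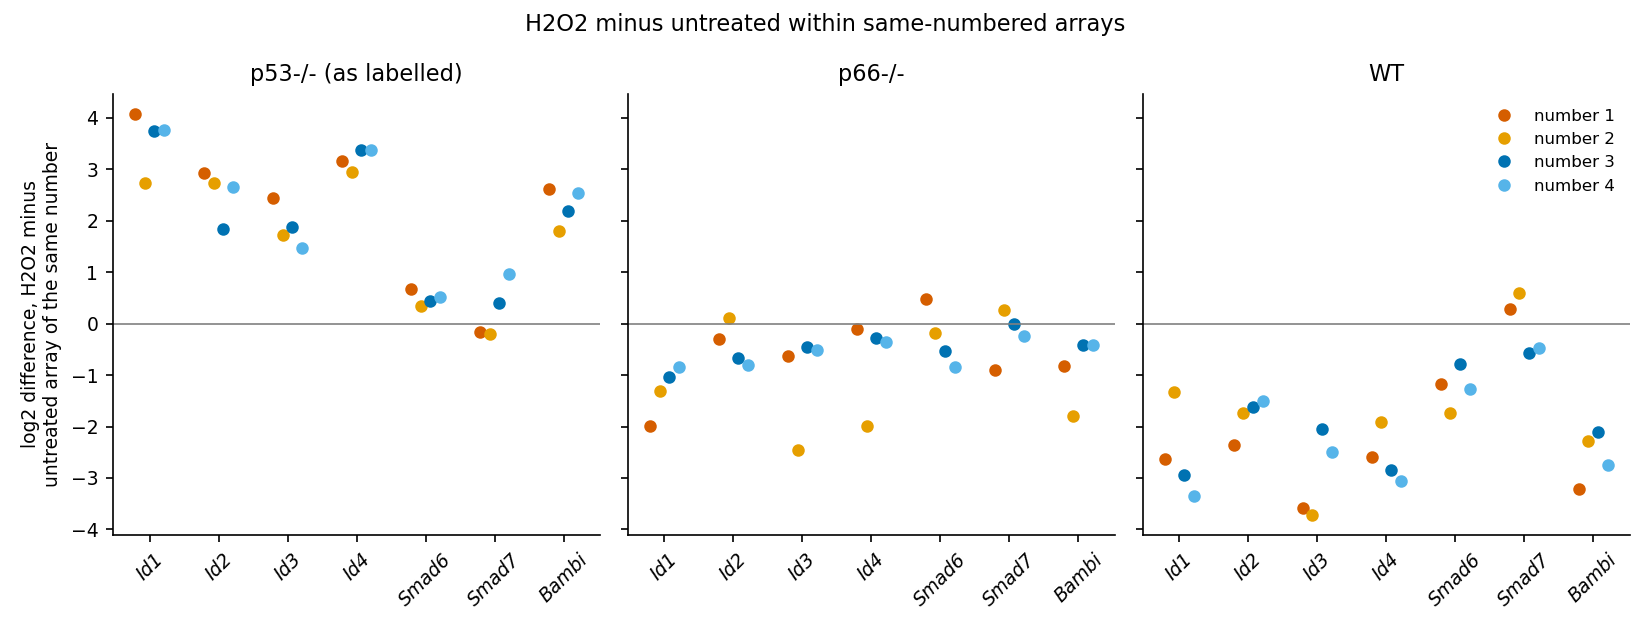
Log2 difference (y axis) between the H2O2 and the untreated array of the same replicate number for each of the 7 genes (x axis), in p53-/- cells as labelled, p66-/- cells and WT cells, 1 point per number. In WT cells 4 of 4 points lay below 0 for each gene but Smad7, in p66-/- cells number 2 was the lowest point for Id3, Id4 and Bambi, and in p53-/- cells as labelled 4 of 4 lay above 0 for each gene but Smad7.

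After H2O2, levels in p66-/- cells exceeded those in WT cells by 1.53 (SE 0.44) for Id1, 1.68 (SE 0.52) for Id2, 1.93 (SE 0.52) for Id3, 2.46 (SE 0.72) for Id4 and 1.61 (SE 0.38) for Bambi. None of the 7 was called (adjusted p = 0.070 to 0.95, against 0.205% of all genes called higher and 0.0409% lower), and by the thresholds of the study 6 were higher, against 1.9%. In the fit blocked on replicate number, Id1, Id2, Id3 and Bambi were called higher, 4 of 7 against 1.31% of genes, with adjusted p = 0.042, 0.015, 0.021 and 0.0089. Leaving out a single array also changed the calls. Without the H2O2 array of p66-/- replicate 2, Id1, Id3, Id4 and Bambi were called, with adjusted p = 0.0015 to 0.015, and the difference of Id4 was then 3.50. That array was the lowest of the H2O2-treated p66-/- arrays for each of these genes, so leaving it out raises the differences. These calls are therefore no independent support. The share of all genes called without that array was not computed. In untreated cells p66-/- and WT levels differed by -0.11 to 0.54 for the 7 genes, and none was called (adjusted p = 1.0, against 0% of genes).

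The test of the difference between the responses, p66-/- minus WT, gave 1.73 (SE 0.54) for Bambi, 1.95 (SE 0.74) for Id3, 1.91 (SE 1.02) for Id4, 1.39 (SE 0.73) for Id2 and 1.27 (SE 0.62) for Id1. None was called (adjusted p = 1.0 for each in limma), nor was any other gene (0% of 17097). By the thresholds of the study Bambi and Id3 differed, 2 of 7 against 0.936% of genes. In replicates 3 and 4 alone, with 2 arrays per group, Id1, Id3, Id4 and Bambi were called, with differences of 2.20, 1.79, 2.63 and 2.01. The p66-/- arrays of replicates 3 and 4 read close together, as for Bambi at 7.88 and 7.88 after H2O2 and 8.30 and 8.29 untreated. Whether this spread is that of independent preparations was not tested. In replicates 1 and 2 alone the differences were 0.34, 2.11, 1.19 and 1.45, with none called. For these fits to a single array set the share over all genes was not computed.

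In p53-/- cells the labelled direction was the reverse of that in WT cells. As labelled, Id1, Id2, Id3, Id4 and Bambi rose after H2O2, 5 of 7 genes against 2.86% of all genes. This sign opposes that of the study's table, whose reference by its legend is untreated WT cells. The same 5 passed the thresholds of the study, against 3.84%. Id1 read 9.73, 8.67, 9.68 and 9.15 in p53-/- cells labelled H2O2, against 5.64, 5.95, 5.94 and 5.38 in p53-/- cells labelled untreated. These groups lay over 2 log2 units apart, and the change of 3.58 (SE 0.44, adjusted p = 3.1e-05) was the largest of any member after a treatment. Id4 read 8.32, 7.38, 7.77 and 7.76 in p53-/- cells labelled H2O2, against 5.15, 4.43, 4.39 and 4.38 in those labelled untreated (change 3.22, SE 0.72, adjusted p = 0.0097). No array of Id4 crossed over.

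Id2 read 9.77, 9.46, 10.25 and 9.92 in p53-/- cells labelled H2O2, against 6.85, 6.74, 8.41 and 7.27 in those labelled untreated (change 2.54, SE 0.52, adjusted p = 0.0047). Bambi read 8.48, 8.21, 8.66 and 8.69 in p53-/- cells labelled H2O2, against 5.87, 6.42, 6.46 and 6.16 in those labelled untreated (change 2.28, SE 0.38, adjusted p = 0.00083). Both genes were high on each array labelled H2O2. Id3 read 11.18, 11.09, 11.32 and 11.19 in p53-/- cells labelled H2O2, against 8.73, 9.36, 9.43 and 9.73 in those labelled untreated (change 1.88, SE 0.52). Its adjusted p was 0.039, and leaving out any single p53-/- array brought it to 0.061 to 0.092. The exact permutation test gave p = 0.029 for each of these 5 genes, and 5.46% of all genes were higher without overlap.

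Smad6 read 7.15, 7.08, 7.59 and 7.48 in p53-/- cells labelled H2O2, against 6.48, 6.74, 7.16 and 6.96 in those labelled untreated, a difference of 0.49 (SE 0.43, adjusted p = 0.61). Its arrays overlapped, although 4 of 4 pairs were higher. Smad7 read 7.93, 8.10, 8.03 and 8.08 in p53-/- cells labelled H2O2, against 8.09, 8.29, 7.62 and 7.11 in those labelled untreated, with 2 pairs higher and 2 lower (0.26, SE 0.24). With the labels exchanged each change keeps its size and turns its sign, so that Id1 reads -3.58, Id4 -3.22, Id2 -2.54, Bambi -2.28 and Id3 -1.88 after H2O2.

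The difference between the responses of p53-/- cells as labelled and WT cells was called for Id1 (6.14), Id4 (5.82), Bambi (4.87), Id3 (4.85) and Id2 (4.35), 5 of 7 against 6.73% of genes called higher. By the thresholds of the study Smad6 (1.73) was a sixth, against 9.33%. With the labels exchanged none of the 7 was called, and the differences were -1.02 for Id1, -0.62 for Id4, 0.30 for Bambi, 1.08 for Id3 and -0.73 for Id2. As labelled, untreated p53-/- cells were lower than untreated WT cells for Id1 (-3.53), Id4 (-2.68), Id2 (-2.03) and Bambi (-1.85), 4 of 7 called against 2.69% of genes, and with Id3 (-1.66) 5 of 7 by the thresholds of the study, against 3.45%. In the fit blocked on replicate number Id3 was called too (adjusted p = 0.0097). The calls of Id2 and Id4 were not stable. Id2 had an adjusted p of 0.060 in the compared groups alone, 0.054 to 0.066 without untreated p53-/- replicate 1, 2 or 4, and 0.088 or 0.078 without untreated WT replicate 3 or 4. Id4 had 0.051 in the plain test, 0.063 to 0.078 without untreated p53-/- replicate 2, 3 or 4, and 0.10 or 0.11 without untreated WT replicate 3 or 4. H2O2-labelled p53-/- cells were higher than H2O2-treated WT cells for Id3 (3.19), Id4 (3.14), Bambi (3.02), Id1 (2.61) and Id2 (2.32), 5 of 7 called against 5.99%, and with Smad6 (1.35) 6 of 7 by the thresholds of the study, against 6.14%. With the labels exchanged none of the 7 was called in either comparison. Both comparisons share arrays with the responses above.

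A comparison that does not depend on the treatment labels averages the untreated and the H2O2 arrays of a genotype. In p53-/- cells none of the 7 genes was called against WT, beside 0.608% of genes higher and 0.953% lower, and Id3 alone passed the thresholds of the study (0.649% of genes higher). The differences were 0.77 (SE 0.37, adjusted p = 0.39) for Id3, 0.58 (SE 0.27, adjusted p = 0.36) for Bambi and -0.46 (SE 0.31, adjusted p = 0.57) for Id1. In p66-/- cells the averages were higher than in WT cells by 1.5001 (SE 0.51) for Id4, 0.98 (SE 0.37) for Id2, 0.96 (SE 0.37) for Id3, 0.89 (SE 0.31) for Id1 and 0.75 (SE 0.27) for Bambi, with adjusted p = 0.39 to 0.49 and none called (0% of genes in either direction), while these 5 passed the thresholds of the study, against 0.55% of genes. Without both replicate 2 arrays of p66-/- cells, Id1, Id3, Id4 and Bambi were called, with differences of 1.34, 1.44, 2.32 and 1.06. These arrays were left out after they were seen to read low for most of the 7 genes, which raises the p66-/- averages. These calls are therefore no independent support, and the share over all genes was not computed for this fit.

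**Figure D3:**
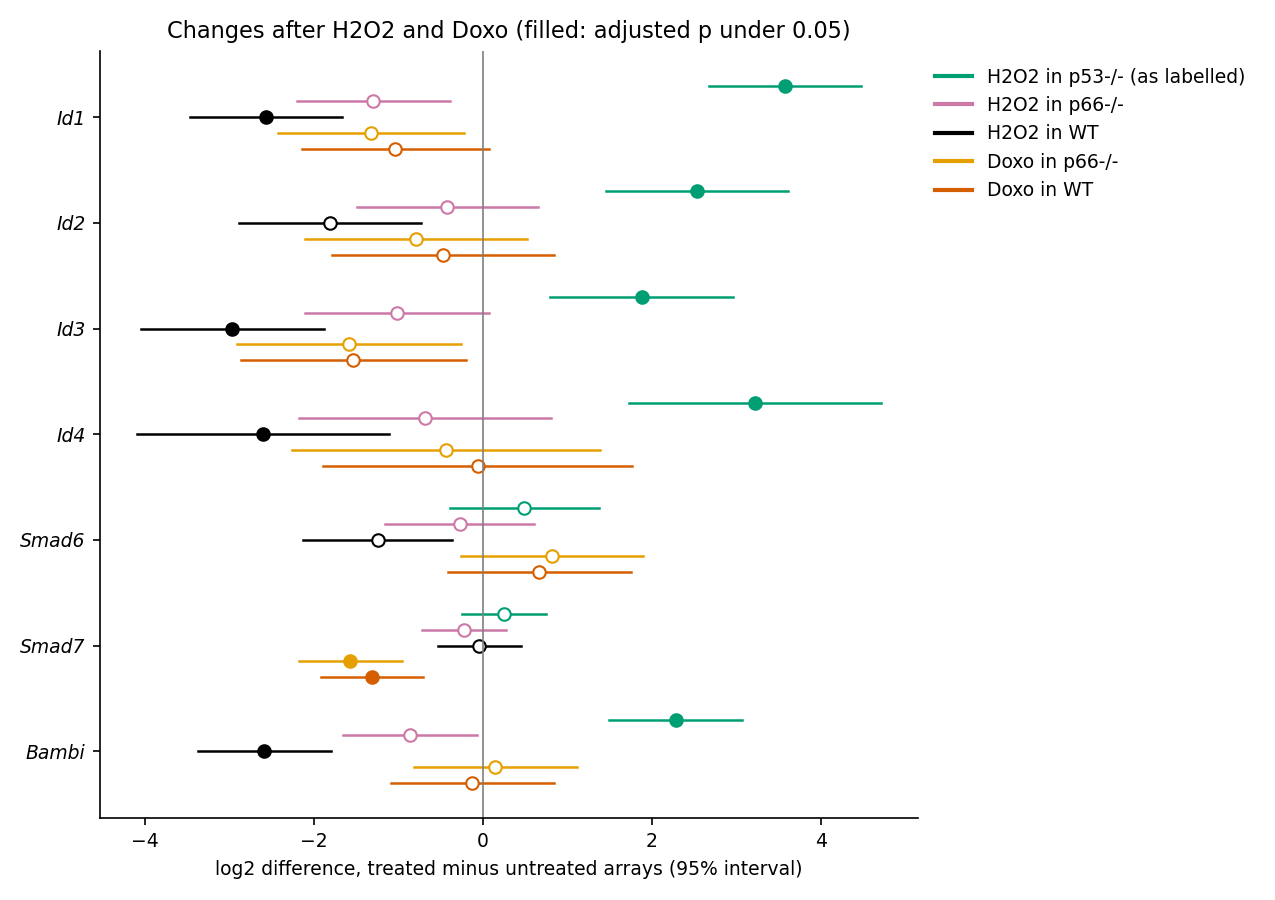
Log2 difference between treated and untreated arrays (x axis, point with 95% interval from limma) for each of the 7 genes (y axis), after H2O2 in p53-/- cells as labelled, p66-/- cells and WT cells, and after Doxo in p66-/- and WT cells. Filled points had an adjusted p under 0.05. After Doxo Smad7 alone was called, at -1.57 in p66-/- cells and -1.31 in WT cells.

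After Doxo, Smad7, the brake on TGF-β and BMP receptors, was the 1 member called, and it fell in both genotypes. In WT cells 1 of the 7 genes was called lower, against 16.1% of genes, and in p66-/- cells 1 of 7, against 16.5%, so that the share among the members was close to that of all genes. In the same comparisons 27% and 32.6% of genes were called higher. By the thresholds of the study Id3 was also lower in both genotypes and Id1 in p66-/- cells, 2 of 7 in WT cells against 15.5% of genes and 3 of 7 in p66-/- cells against 15.7%. The median over all genes was 0.19 in WT and 0.21 in p66-/- cells. The labels do not say which untreated arrays were run with the 4 Doxo arrays, all of which read lower for lys than every array of replicates 1 and 2. The part of such a difference between runs in the Doxo values was not tested. The responses to Doxo and to H2O2 were not tested against each other.

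Smad7 read 6.46 and 7.04 in Doxo-treated p66-/- cells, against 8.87, 7.90, 8.21 and 8.29 in untreated p66-/- cells. In WT cells it read 6.56 and 6.99 after Doxo, against 8.29, 7.59, 8.26 and 8.21 untreated. The Doxo arrays of both genotypes lay below every other array of Smad7 in the series, and the changes were -1.57 (SE 0.29, adjusted p = 0.00029) in p66-/- cells and -1.31 (SE 0.29, adjusted p = 0.0017) in WT cells. The exact permutation test gave p = 0.13 for each, the smallest that this two-sided test allows with 2 against 4 arrays. Groups without overlap and lower made up 20.3% of genes in p66-/- and 20.7% in WT cells.

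Id3 read 9.54 and 9.20 in Doxo-treated p66-/- cells and 9.49 and 9.38 in Doxo-treated WT cells, below every untreated array of either genotype. Its changes were -1.59 (SE 0.64, adjusted p = 0.052) and -1.53 (SE 0.64, adjusted p = 0.067), and in fits to the compared groups alone it was called in both (adjusted p = 0.016 in p66-/- and 0.0031 in WT cells). Id1 read 8.30 and 8.10 in Doxo-treated p66-/- cells and 8.14 and 8.30 in Doxo-treated WT cells, with changes of -1.32 (adjusted p = 0.051) and -1.04 (adjusted p = 0.13). Without the untreated p66-/- array of replicate 2, Id1 and Id3 were also called in p66-/- cells, at -1.76 and -1.83 (adjusted p = 0.0093 and 0.041). That array was the lowest untreated p66-/- array for both genes, so leaving it out makes both changes larger. Neither for this fit nor for those to the compared groups alone was the share of all genes called computed.

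Bambi and Id4 were not called after Doxo. Bambi read 7.80 and 8.42 in Doxo-treated p66-/- cells and 7.83 and 8.08 in Doxo-treated WT cells, with differences of 0.15 (95% interval -0.82 to 1.11) and -0.13 (-1.09 to 0.84). Id4 read 7.21 and 7.54 in Doxo-treated p66-/- cells and 7.37 and 7.05 in Doxo-treated WT cells, with differences of -0.44 and -0.06 and wide intervals (-2.26 to 1.39 and -1.89 to 1.77). Without the untreated p66-/- array of replicate 2, the difference of Id4 in p66-/- cells was -1.04 (adjusted p = 0.36). Its probe sets disagreed in size, since 1 of the other 2 gave -1.77 and -1.31 and the other 0.01 and 0.25, none of them called. Id2 had -0.79 (SE 0.63) in p66-/- and -0.47 (SE 0.63) in WT cells, and -1.29 (adjusted p = 0.096) in p66-/- cells without that array. Smad6 read 8.22 and 7.99 in Doxo-treated p66-/- cells and 7.80 and 7.99 in Doxo-treated WT cells, 0.82 and 0.67 above untreated cells (SE 0.52 each, adjusted p = 0.21 and 0.32). In the fit blocked on replicate number, which does not pair the Doxo arrays, the differences of Smad6 were 1.25 and 1.10, with adjusted p = 0.0082 and 0.019. That fit called 44% of all genes higher after Doxo in p66-/- cells and 40.4% in WT cells. With no block the differences of Smad6 were 0.44 (adjusted p = 0.51) without untreated p66-/- replicate 2 and 0.34 (adjusted p = 0.64) without untreated WT replicate 1.

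Doxo-treated p66-/- and WT cells differed by -0.07 to 0.21 for the 7 genes, and the responses by -0.38 to 0.27. None of the 7 was called in either comparison (adjusted p = 1.0 in limma), as was no gene of the arrays. For Smad7 the difference in response was -0.26 (95% interval -1.12 to 0.60).

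The upstream genes of the pathway were set beside the members by role (plot of pathway genes by role). In WT cells after H2O2, 0 of 6 signalling Smads, 0 of 10 measured BMP ligands, 0 of 6 TGF-β and activin ligands, 0 of 13 secreted antagonists and 0 of 7 other BMP targets were called, beside 2.29% of genes higher and 2.67% lower. Smad1, which carries the BMP signal, had a difference of 0.06, Smad5 0.00 and Bmp4, a BMP ligand, -0.79. Of 15 receptors 1 rose, the BMP type I receptor Acvr1 (0.62, adjusted p = 0.0039). Of 11 intracellular brakes 2 rose, the Smad phosphatase Ppm1a (0.47, adjusted p = 0.0022) and the corepressor Tgif1 (0.65, adjusted p = 0.024). Of 8 TGF-β targets Ccn2, which codes for a matrix-associated growth factor, fell (-1.04, adjusted p = 0.030), and of 11 bHLH partners Twist1, a mesenchymal transcription factor, fell (-0.75, adjusted p = 0.036). The E proteins Tcf3, Tcf4 and Tcf12, the direct partners of the Id proteins, had differences of -0.10, -0.16 and 0.06. The medians of these lists lay between -0.14 and 0.31. In p66-/- cells no gene of these lists was called, with medians between -0.21 and 0.12. In p53-/- cells as labelled Ppm1a fell (-0.40) and Ccn2 rose (1.21), beside 2.86% of genes called higher and 3.02% lower, and with the labels exchanged both signs turn.

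**Figure D4:**
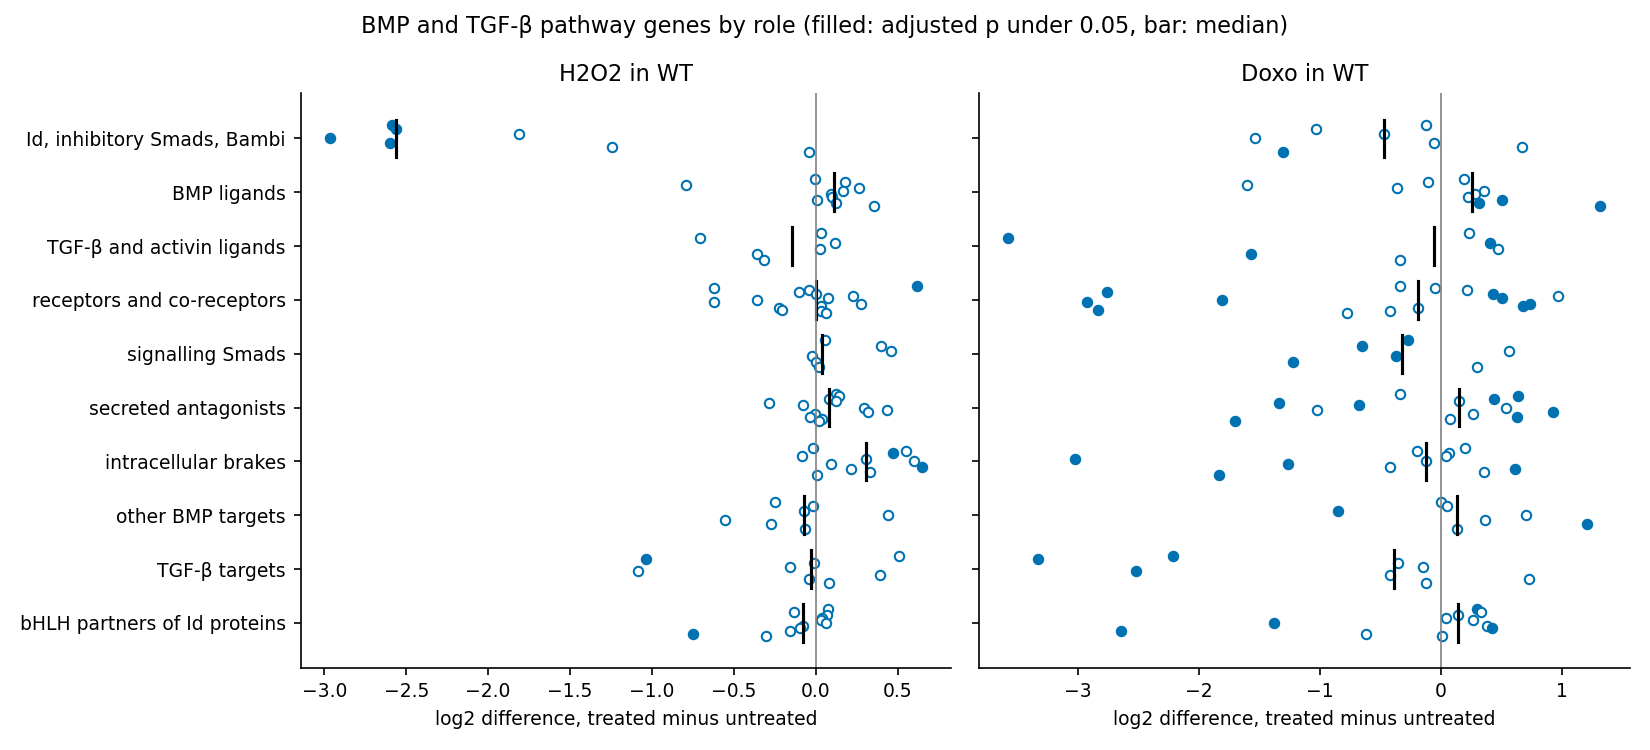
Log2 difference (x axis) of each measured gene of the BMP and TGF-β pathways, grouped by role (y axis), after H2O2 and after Doxo in WT cells, with the median of each list as a bar and filled points for an adjusted p under 0.05. After H2O2 the 7 members have a median of -2.56 and the other lists medians between -0.14 and 0.31, whereas after Doxo several lists hold called genes on both sides of 0.

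After Doxo pathway genes were called in both directions in WT cells, beside 27% of genes called higher and 16.1% lower. Of 10 BMP ligands 3 rose, Gdf5 (1.32), Bmp8b (0.50) and Gdf2 (0.32), and none fell. Of 6 TGF-β and activin ligands Inhba (-3.58) and Tgfb2 (-1.57) fell and Nodal (0.40) rose. Of 13 secreted antagonists 4 rose, Cer1 (0.63) among them, and 3 fell, Fst (-1.34), Twsg1 (-1.71) and Fstl1 (-0.68). Of 7 other BMP targets Msx2 (1.21) rose and Hes1 (-0.86) fell. Of the 6 signalling Smads 4 fell, Smad5 (-1.22), Smad2 (-0.65), Smad4 (-0.37) and Smad1 (-0.28). Of 15 receptors 4 fell and 4 rose, among them Tgfbr1 (-2.83) and Bmpr2 (-2.93), the type I receptor for TGF-β and the type II receptor for BMPs, and the co-receptor Eng (0.74). Of 11 intracellular brakes Skil (-3.03), Wwp1 (-1.83) and Smurf2 (-1.27) fell and Tgif2 (0.62) rose, 7 were not called and the median was -0.13. Of 8 TGF-β targets Ccn2 (-3.34), Col1a2 (-2.52) and Bhlhe40 (-2.22) fell, and none rose. Of the E proteins Tcf4 (-2.64) and Tcf12 (-1.38) fell and Tcf3 (0.42) rose. Of the 10 fibroblast markers 2 fell in WT and 3 in p66-/- cells after Doxo, 1 of 5 macrophage markers rose in each, and in p66-/- cells 1 of 5 macrophage markers fell and 1 of 5 epithelial and 2 of 5 muscle markers rose. The part of other cells in these values was not tested. In p66-/- cells the same 4 signalling Smads fell and Smad9 rose (0.52), 5 of 10 BMP ligands rose and none fell, and 5 of 13 secreted antagonists rose and 3 fell. Of the 11 intracellular brakes 4 fell and 1 rose there, and of the 15 receptors 5 fell and 4 rose.

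The genes most like each member over the 28 arrays were mostly from outside the pathway. For Id1 they were Tyw3 (r = 0.95), Surf6 (0.93), Ak4 (0.93), Peg12 (0.93) and Actr8 (0.92). For Id3 they were Exo1 (0.94), Pank1, Kri1, E2f8 and Pdcd11 (0.92 to 0.93), and for Bambi they were Mlx (0.96), Fasn (0.95), Trmt61a, Zfp335 and Tubb6 (0.94 each). Id1 itself was among the 5 closest genes of Id2 (0.89) and of Id4 (0.90), together with Surf6 for Id2 (0.89) and Trmt61a for Id4 (0.90). Smad6 was closest to Zbtb22 (0.90) and Ints7 (0.90). Smad7 was closest to Hbegf (0.93), an EGF-family growth factor, and Ptgs2 (0.92), the inducible cyclooxygenase, with rho of 0.87 and 0.72. These likenesses describe arrays that share treatments and array sets.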

How the data were processed

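RNA of 28 MEF samples was hybridized to Affymetrix MG-430 PM arrays. The submitters' processing notes name Partek 6.5 and RMA, and the deposited values, normalized by the authors, are log2 values between 1.95 and 13.5, with array medians of 4.35 to 4.46. No further transformation was applied. Arrays have no read depth, and their number limits the precision. The build of the annotation is not given in the sources used here.

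After removal of 104 controls, 45037 probe sets entered the tests. A single symbol was given to 28898 of them (17097 genes), several to 551 and none to 15588. Group means of all 8 groups were estimated together in limma 3.58.1 (R 4.3.3), with Benjamini-Hochberg adjustment over all probe sets tested. The fit was tested on simulated data. Exact permutation tests used SciPy. Members and gene lists were chosen with earlier results of these data known. All 7 members are named, and pathway genes are named if called (up to 4 per list) or by role. The labels call the arrays biological replicates and the methods speak of independent preparations.

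Deviations from the group means correlated between H2O2 and untreated arrays of the same number at r = 0.53 to 0.79. For H2O2 replicate 3 of WT and p66-/- cells, the untreated array of number 4 correlated best (0.593 and 0.737). For p66-/- H2O2 replicate 4 it was that of number 3 (0.71), so pairing by number within replicates 3 and 4 is not certain. The main fit did not pair arrays. A fit with the number as a block, which also ties equal numbers across genotypes, was an alternative. The Doxo arrays, at -0.09 to 0.05, are not paired by number. Alternatives were the array set (told apart by the spike-in control lys, not by the labels) as a block, each set alone, the compared groups alone, a plain test, leaving out the 40% of probe sets with the lowest means, further quantile normalization, other thresholds, the probe set with the lowest p, exchanged p53-/- labels and leaving out each array. Fits without both p66-/- replicate 2 arrays, and with exchanged labels and the block together, were chosen after seeing the data.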

Additional observations from a re-analysis of the deposited data

Results flagged for a closer look

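Of 42 sets of 4 arrays (7 genes in 6 groups), 7 held an array whose gap to its neighbour exceeded Dixon's 95% critical share of the range. Chance gives about 5% for a single set. The genes share arrays and correlate, so an odd array can be counted repeatedly and the 7 are not independent. Of the arrays in these 7 sets, 4 were replicate 2 arrays of p66-/- cells, all low. After H2O2 they were Id2 at 8.24 (next array 9.46) and Id3 at 7.76 (next 10.44), and in untreated cells Id1 at 8.19 (next 9.83) and Id2 at 8.13 (next 9.93). Replicate 2 of untreated WT cells was low for Smad7, at 7.59 (next 8.21), and for Bambi, at 7.16 (next 8.33). Replicate 1 of p53-/- cells labelled untreated was high for Id4, at 5.15 (next 4.43).

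The response to H2O2 differed between p53-/- cells as labelled and WT cells, by the interaction term of limma, for Id1 (6.14, adjusted p = 5.0e-07), Bambi (4.87, adjusted p = 1.9e-06), Id3 (4.85, adjusted p = 9.4e-05), Id2 (4.35, adjusted p = 0.00027) and Id4 (5.82, adjusted p = 0.00040). The 4 p53-/- pairs were higher and the 4 WT pairs lower for each of these 5 genes, and with the p53-/- labels exchanged no member was called.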

How the results depend on the processing

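Counts of the 7 members called moved as follows. H2O2 in WT and in p53-/- cells as labelled gave 4 and 5, but 0 each in replicates 1 and 2 alone, where each group held 2 arrays. In replicates 3 and 4 alone, also with 2 arrays per group, Id1, Id2, Id3, Id4 and Bambi were called in both genotypes. There Smad6 was called too in WT cells and Smad7 in p53-/- cells as labelled. H2O2 in p66-/- cells gave 0, and 2 by the thresholds of the study. Doxo gave 1 in WT cells, and 2 with the replicate block, in the compared groups alone and by the thresholds of the study. In p66-/- cells Doxo gave 1, then 2 with the block and in the compared groups alone, and 3 without the 40% of probe sets with the lowest means, by the thresholds of the study and without both p66-/- replicate 2 arrays. With the block the 2 members were Smad7, lower, and Smad6, higher. Beside them 40.4% of genes were called higher and 19.2% lower in WT cells, and 44% and 19.5% in p66-/- cells. H2O2-treated p66-/- against WT gave 0, then 4 with the replicate block, the array set as a block and in replicates 3 and 4 alone, 5 without the p66-/- pair and 6 by the thresholds of the study. Averaged p66-/- against WT gave 0, then 4 in replicates 3 and 4 alone, 5 by the thresholds of the study and 4 without the pair. Averaged p53-/- against WT gave 0, then 2 in replicates 3 and 4 alone and 1 by the thresholds of the study, and there Id4 read -0.56 in replicates 3 and 4 alone. The p66-/- minus WT response to H2O2 gave 0, then 4 in replicates 3 and 4 alone and 2 by the thresholds of the study. Untreated p53-/- against WT gave 4, then 0 in the first array set (replicates 1 and 2) and 7 in the second (3 and 4), and H2O2-labelled p53-/- against WT gave 5, then 3 in replicates 1 and 2 alone. Outside the main fit, the thresholds of the study, the replicate block and the exchanged labels, no share over all genes was computed. Counts under the other settings, here and below, cannot be set against one. The cause of these moves was not tested.

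With the p53-/- labels exchanged, with or without the replicate block, the counts were 0 for untreated p53-/- against WT, for H2O2-treated p53-/- against WT and for the difference in response. H2O2 in p53-/- cells then gave -3.58 (Id1), -2.54 (Id2), -1.88 (Id3), -3.22 (Id4) and -2.28 (Bambi). Untreated p53-/- against WT gave 0.0491 (Id1), 0.51 (Id2), 0.54 (Id4) and 0.43 (Bambi). H2O2-treated p53-/- against WT gave -0.97 (Id1), -0.22 (Id2) and -0.0797 (Id4), and the difference in response -1.02 (Id1), -0.73 (Id2) and -0.62 (Id4).

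Leaving out single arrays gave 1 to 3 members for Doxo in p66-/- cells (3 without untreated replicate 2), 0 to 4 for H2O2-treated p66-/- against WT (4 without p66-/- H2O2 replicate 2), 0 to 1 for averaged p66-/- against WT (1 without the same array) and 2 to 4 for untreated p53-/- against WT (2 without WT untreated replicates 3 or 4 or p53-/- untreated replicates 2 or 4, Id2 and Id4 being lost). H2O2 in WT cells gave 3 to 4. Beyond the calls named beside their results, the replicate block called Id3 lower in untreated p53-/- cells as labelled (adjusted p = 0.0097), Smad6 higher in H2O2-labelled p53-/- cells (0.0039) and Smad6 in the p53-/- minus WT response (0.0060), and changed no other call. Signal near the floor limits the third Id2 probe set. Id4 read 3.86 to 5.22 in WT cells after H2O2 and 4.38 to 5.15 in p53-/- cells labelled untreated. These values lie near the array medians of 4.35 to 4.46, so the size of the Id4 changes is less certain.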
